A study of Mus musculus with 24 samples.

Results

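Basal cells are the progenitor layer of the tracheal epithelium, and they are recognised by a small set of transcription factors and surface proteins. Described here are 7 such genes, out of 35855 mouse genes with summed values. They were taken as a given list, which was chosen with earlier results of these data known. Trp63, Snai2 and Sox15 encode transcription factors. Ngfr, Pdpn, Cd44 and F3 encode surface receptors or surface glycoproteins. Each gene was followed through 24 RNA sequencing libraries, and its transcripts, those of Trp63 above all, were followed as well. All 7 genes passed the filter on low counts and were among the 12211 genes tested.

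The libraries were bulk SmartSeq2 libraries of airway epithelial cells from the tracheas of naive, wild-type (WT), female C57BL/6 mice, with 1000 cells sorted for each library. The labels give 3 groups of 8 libraries, named BCAM HI, BCAM LO and DIFFERENTIATED EPCS, and the last is called differentiated below. BCAM, the basal cell adhesion molecule, is a laminin-binding surface protein, and the title of the series describes basal cell subsets. Every group held 5 libraries of batch 1 (numbers 1 to 5) and 3 of batch 2 (numbers 6 to 8), and the sources used here do not say what a batch stands for. No genotype or treatment other than the sort separated the groups. The sources used here give neither the gates, nor the number and age of the animals, nor whether libraries came from separate animals, so a p-value measures only the spread between these libraries. In bulk libraries, fewer cells of a type and less RNA per cell cannot be told apart.

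The transcription factor p63, encoded by Trp63, sets up and maintains the basal layer of stratified and pseudostratified epithelia. The gene has an upstream promoter, whose products carry an amino-terminal transactivation (TA) domain, and an internal promoter, whose products (ΔN) lack it and prevail in epithelial basal cells. Alternative splicing at the 3′ end gives α, β and γ forms with different carboxy termini. Surface proteins such as the neurotrophin receptor NGFR (p75) and podoplanin are in wide use for sorting basal cells, and tissue factor, encoded by F3, starts the extrinsic coagulation pathway at epithelial surfaces.

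Each library held between 1824619 and 4440072 estimated counts in all. The keratin Krt5, which defines basal cells, summed to 47143 counts in BCAM HI, 26169 in BCAM LO and 14 in differentiated, so the group labels and this marker went together. The differentiated libraries of the batches stood apart. Their 10 secretory markers summed to 297431 to 433727 CPM (counts scaled to an equal library total, after TMM normalization) in batch 1 and to 16026 to 108306 CPM in batch 2. Their 14 thyroid, parathyroid and neuroendocrine markers summed to 16390 to 43300 CPM in batch 1 and 49410 to 116809 CPM in batch 2, mostly Tg (thyroglobulin). Tg gave 12939 to 24406 CPM in batch 1 and 46826 to 112408 CPM in batch 2. Pth (parathyroid hormone) went the other way, with 186 to 17647 CPM in batch 1 and 0 to 234 CPM in batch 2. Calcr alone of these 14 was at 0 counts in the group. Comparisons of the 7 genes with the differentiated group are therefore also given within each batch or as a change between batches, while those of the pathway lists rest on all 24 libraries. BCAM LO of batch 2 held Foxj1, a regulator of ciliated cells, at 41.9 to 61.7 CPM against 0.473 to 4.43 CPM in batch 1. The 10 ciliated markers together moved less there, from 334 to 516 CPM in batch 1 to 431 to 696 CPM in batch 2. In BCAM HI they summed to 170 to 313 CPM in batch 1 and 49.5 to 99.0 CPM in batch 2.

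The genes lie on 5 mouse chromosomes, here by GENCODE M21 coordinates of build GRCm38. Trp63 (ENSMUSG00000022510) spans chr16:25683763-25892102 on the plus strand and has 8 transcripts in the files. Snai2 (ENSMUSG00000022676) lies on the same chromosome at chr16:14705852-14709385, plus strand. Sox15 (ENSMUSG00000041287) spans chr11:69655314-69656727, plus strand, and shares 31 of its 861 exon bases with Mpdu1 on the opposite strand, so reads from those bases cannot be assigned. Ngfr (ENSMUSG00000000120) spans chr11:95568818-95587735, minus strand. Pdpn (ENSMUSG00000028583) spans chr4:143267431-143299564, minus strand. Cd44 (ENSMUSG00000005087) spans chr2:102811141-102901665, minus strand, and F3 (ENSMUSG00000028128) spans chr3:121723537-121735048, plus strand. The other 6 genes share 0 exon bases with an overlapping gene.

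Promoters of 5 of the 7 genes were found in the RefSeq table for GRCm38.p6, which left Trp63 and Snai2 unmatched. The 250 bases before the start are shown for F3, Pdpn and Ngfr, the surface receptor genes that were called lower in batch 2 in the differentiated libraries and higher in both BCAM groups than in differentiated, and for Sox15, one of the genes called between the BCAM groups. Capitals mark matches, on either strand, to TGANTCA, the site bound by AP-1 factors, or to CAGGTG, an E-box that Snail factors bind. The core of the p53 family site, to which p63 binds (CATG on both sides of 6 free bases), and ACAATG, a SOX site, were searched too and had no match in the 5 promoters. The motifs searched do not overlap each other here.
F3, chr3:121723287-121723536, plus strand: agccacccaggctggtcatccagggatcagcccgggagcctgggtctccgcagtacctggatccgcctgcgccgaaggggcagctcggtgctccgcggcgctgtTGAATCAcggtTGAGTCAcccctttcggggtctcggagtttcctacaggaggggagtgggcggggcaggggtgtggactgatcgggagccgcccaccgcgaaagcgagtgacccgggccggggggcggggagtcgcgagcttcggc
Pdpn, chr4:143299565-143299814, minus strand: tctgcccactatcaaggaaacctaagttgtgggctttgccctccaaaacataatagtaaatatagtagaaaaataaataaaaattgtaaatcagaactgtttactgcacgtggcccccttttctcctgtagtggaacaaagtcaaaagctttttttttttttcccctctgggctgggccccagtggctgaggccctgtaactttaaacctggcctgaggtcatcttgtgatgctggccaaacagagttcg
Ngfr, chr11:95587699-95587948, minus strand: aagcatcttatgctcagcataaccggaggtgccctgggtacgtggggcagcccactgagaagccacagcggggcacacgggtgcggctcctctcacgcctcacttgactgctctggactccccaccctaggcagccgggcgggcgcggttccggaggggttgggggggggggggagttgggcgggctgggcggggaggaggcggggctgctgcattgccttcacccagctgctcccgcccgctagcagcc
Sox15, chr11:69654787-69655036, plus strand: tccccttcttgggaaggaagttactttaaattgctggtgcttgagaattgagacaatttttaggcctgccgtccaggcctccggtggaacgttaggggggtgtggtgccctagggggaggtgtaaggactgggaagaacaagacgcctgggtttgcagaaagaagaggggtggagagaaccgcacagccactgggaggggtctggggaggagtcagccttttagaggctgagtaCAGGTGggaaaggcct
The F3 promoter holds 2 AP-1 matches side by side, TGAATCA at 146 to 140 bases and TGAGTCA at 135 to 129 bases before the start. Of 32851 promoters of this length, 6.75% hold at least 1 such match. The E-box of Sox15 lies 16 to 11 bases before the start, and 17.2% of promoters hold that hexamer. The other 2 motifs occur in 0.490% (p53 core) and 10.7% (SOX) of promoters. The RefSeq start of Sox15 lies upstream of its start in M21. That of Ngfr lies inside its M21 span, so some of the Ngfr bases shown belong to the M21 gene. A match is a run of letters and was not tested for binding.

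All 7 genes fell into 2 patterns. The transcription factors, Ngfr, Pdpn and F3 were highest in BCAM HI, next in BCAM LO and lowest in differentiated, by their mean CPM. Cd44 had about the same level in all 3 groups. Against differentiated, 6 of the 7 genes were higher in BCAM HI and the same 6 were higher in BCAM LO, by edgeR's quasi-likelihood test with p-values adjusted by Benjamini-Hochberg (BH) over all genes tested and a threshold of 0.05. Of all genes, 19.4% were called higher in BCAM HI than in differentiated and 16.3% higher in BCAM LO than in differentiated. In CPM, 6 of the 7 genes in BCAM HI and 4 in BCAM LO lay above every differentiated library, which 6.1% and 3.44% of all genes did. The comparisons share their differentiated libraries. Between BCAM HI and BCAM LO, Snai2 and Sox15 were called, both higher in BCAM HI, which is 2 of 7 genes beside 2.43% of all genes called higher and 7.02% called in either direction. In batch 1 alone, Trp63, Snai2, Pdpn and F3 were called higher in BCAM HI, 4 of 7 genes beside 2.05% of all genes. Cd44 was called lower there, as were 461 of 12673 genes tested, and Sox15 was not called. Batch 2 alone called 0 of the 7 genes, and 543 of 12385 genes tested in either direction.

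**Figure D1:**
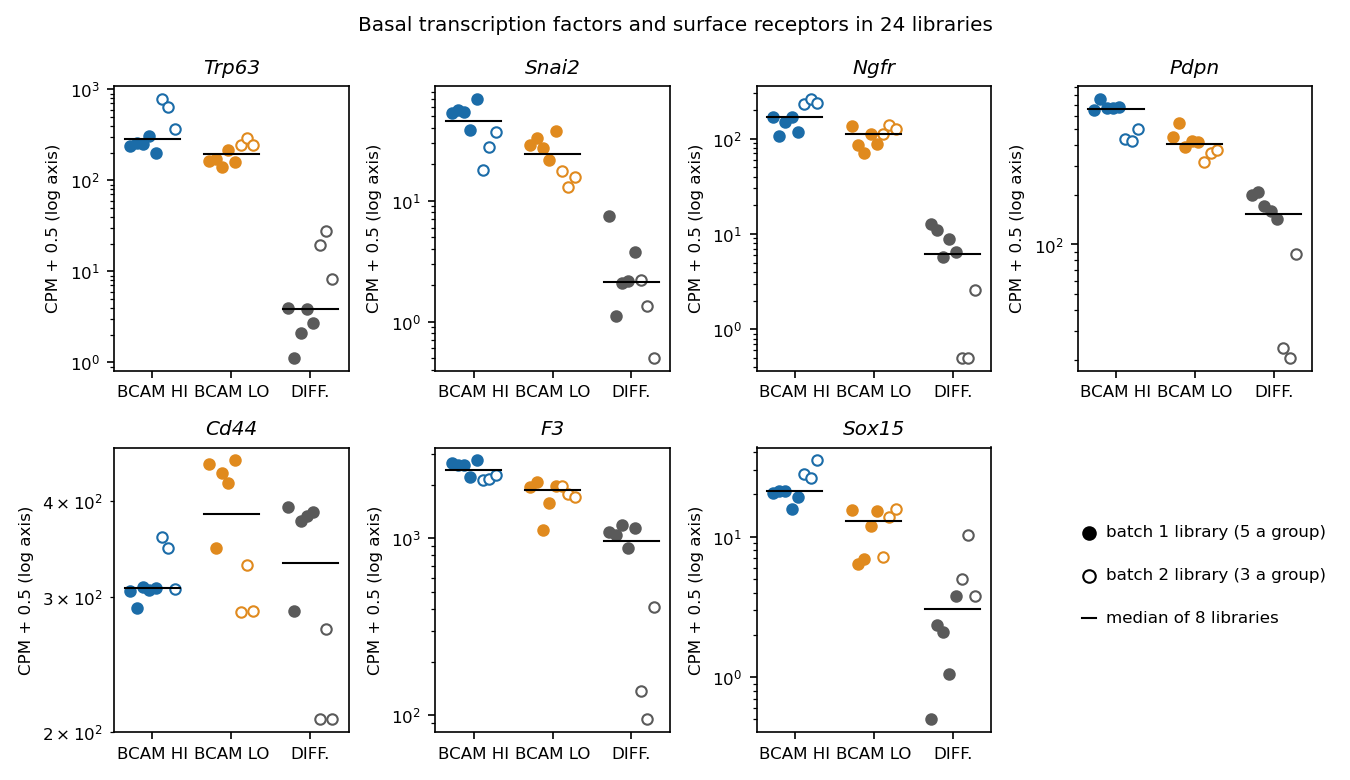
Level of each of the 7 genes as CPM plus 0.5 on a log axis, 1 point per library and a line at the median of 8; filled points are batch 1 and open points batch 2. Differentiated libraries lie below all BCAM HI libraries for 6 genes, while the Cd44 points of all groups lie between 207 and 451 CPM.

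Trp63 gave 198 to 784 CPM in BCAM HI (median 282), 141 to 293 CPM in BCAM LO (median 193) and 0.619 to 27.3 CPM in differentiated (median 3.39). The BCAM groups overlapped, with 4 of 8 BCAM HI libraries above all of BCAM LO, and both lay clear of the differentiated group. BCAM HI exceeded differentiated by 5.66 on the log2 scale (SE 0.34, edgeR, BH-adjusted p = 7.41e-12), and BCAM LO exceeded it by 4.90 (SE 0.34, edgeR, BH-adjusted p = 1.29e-10). Between the BCAM groups, Trp63 was higher in BCAM HI in 8 of 8 same-numbered libraries. The labels do not tie a number to an animal, here or for the genes below, so such counts only describe. The difference was 0.76 (SE 0.26) and did not pass the threshold (edgeR, BH-adjusted p = 0.0818). It passed without differentiated library 7 (edgeR, BH-adjusted p = 0.0202), in batch 1 alone (0.56, edgeR, BH-adjusted p = 0.0178), by DESeq2 (0.75, BH-adjusted p = 0.0388), with offsets for transcript length (0.89, edgeR, BH-adjusted p = 0.0340), by limma on TPM, and with the 2 BCAM groups fitted alone (0.78, edgeR, BH-adjusted p = 7.97e-04). Its range over all 11 alternatives was 0.56 to 1.2, with adjusted p-values of 7.97e-04 to 0.254.

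Trp63 also differed between batches in 2 groups. In BCAM HI the libraries of batch 1 gave 236, 259, 248, 305 and 198 CPM and those of batch 2 gave 784, 646 and 366 CPM. All 3 batch 2 libraries thus lay above all 5 of batch 1, by 1.27 on the log2 scale (SE 0.24, edgeR, BH-adjusted p = 0.00189). In differentiated, batch 1 gave 3.46, 0.619, 1.58, 3.33 and 2.18 CPM, and batch 2 gave 19.2, 27.3 and 7.82 CPM. That rise of 2.98 (SE 0.42) was called too (edgeR, BH-adjusted p = 2.13e-05), and summed counts were 20 in batch 1 and 117 in batch 2. BCAM LO had a batch difference of 0.62 (SE 0.25), which was not called (edgeR, BH-adjusted p = 0.114). For comparison, 4.93% of all genes were higher in batch 2 in BCAM HI, 6.48% in BCAM LO and 9.98% in differentiated. The difference from differentiated was smaller in batch 2 than in batch 1, 5.04 against 6.77 in BCAM HI and 3.84 against 6.21 in BCAM LO, and the change was itself called, at -1.71 (SE 0.50, edgeR, BH-adjusted p = 0.0329) and -2.36 (SE 0.50, edgeR, BH-adjusted p = 0.00265). Interactions with batch were called in 8.69% of genes for BCAM HI and 11.4% for BCAM LO. Krt5 and Krt14 of the differentiated group summed to 14 and 2 counts over 8 libraries. The 12 basal markers together summed there to 2297 to 2861 CPM in batch 1 and 1434 to 1667 CPM in batch 2. In each batch 11 of the 12 had a count. What part basal cell RNA has in the Trp63 values of this group was not tested.

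By transcript, Trp63 counts lay with the internal start at base 25801916, which is 118153 bases after the upstream start. Transcripts Trp63-201 (586 residues) and Trp63-205 (582 residues), which reach the full 3′ end and encode ΔNp63α, held a median of 59.7% of Trp63 counts in BCAM HI and 70.6% in BCAM LO. In BCAM HI the share was 43.5% to 60.1% in batch 1 and 69.9% to 89.1% in batch 2, and in BCAM LO it was 57.6% to 73.0% and 77.1% to 87.6%, with no overlap between batches in either group. With counts pooled over libraries, of which BCAM HI 6 gave the most (2500), the shares were 69.3% and 71.9%. The shorter Trp63-203 (284 residues) held a median of 11.3% and 13.7%. Trp63-204, of 393 residues, encodes ΔNp63γ. Its share ran from 4.63% to 30.4% in BCAM HI (median 20.2%) and from 1.05% to 16.0% in BCAM LO (median 6.82%), so the ranges overlapped. Trp63-204 has 0 bases of its own and ends at the same base as Trp63-207, which had 0 counts in both BCAM groups. Its share rests on how kallisto divided reads among transcripts. These shares were looked at after their values were seen and were not tested.

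Long transcripts from the upstream start were nearly absent in the BCAM groups. These were Trp63-202, Trp63-207 and Trp63-208, which encode TA proteins of 555, 483 and 680 residues. They had a median of 0 counts in each group and reached 6.03 counts in 1 BCAM HI library and 6.39 in a BCAM LO library. In differentiated library 8 they reached 8.78 of 19 Trp63 counts, a share of 46.2%. Their pooled shares were 0.0587% in BCAM HI, 0.121% in BCAM LO and 8.55% in differentiated. Trp63-206 (231 residues), annotated from the same upstream start, had median shares of 5.60% in BCAM HI and 4.88% in BCAM LO. Of the 678 bases that it shares with no other transcript, 676 lie downstream of the internal start, so its count does not measure the upstream exons alone. Counting Trp63-206 as upstream, the internal start held 93.9% ± 2.75 of Trp63 counts in BCAM HI and 94.6% ± 2.53 in BCAM LO (SD, n = 8), a difference of -0.75 percentage points (two-sided exact permutation test, p = 0.570, BH-adjusted over 3 comparisons 0.570). On TPM, or without Trp63-206, that difference turned to 0.015 and 0.055 points.

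Of the differentiated libraries, 3 had at least 10 Trp63 counts, all of batch 2. Their internal-start share averaged 75.8% ± 19.7 (SD, n = 3), with the lowest share, 53.8%, in library 8. It was below BCAM HI by 18.1 points and below BCAM LO by 18.8 points (two-sided exact permutation tests, BH-adjusted p = 0.0273 for both). This call was lost without Trp63-206 (exact permutation test, BH-adjusted p = 0.0818) and with no minimum of counts (exact permutation test, BH-adjusted p = 0.259). It was also lost on leaving out differentiated library 6 or 8, when the differences from BCAM HI became 21 and 7.09 points. Permuting labels within batch 2, the batch of all 3 libraries, allowed 20 permutations (exact permutation test, p = 0.05, BH-adjusted p = 0.075). With 20 permutations p cannot fall under 0.05, so that setting could not give a call. Within the α transcripts, the division between Trp63-201 and Trp63-205, which differ by 4 codons, was unsteady. The 5 BCAM HI libraries of batch 1 had 0% to 5.87% of α counts in Trp63-201, and the 5 BCAM LO libraries of batch 1 had 15.7% to 85.6%. In batch 2 the libraries ran from 13.6% to 59.7% and from 0.834% to 98.4%, so the order seen in batch 1 did not recur. This contrast was noticed in the values and was not tested.

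**Figure D2:**
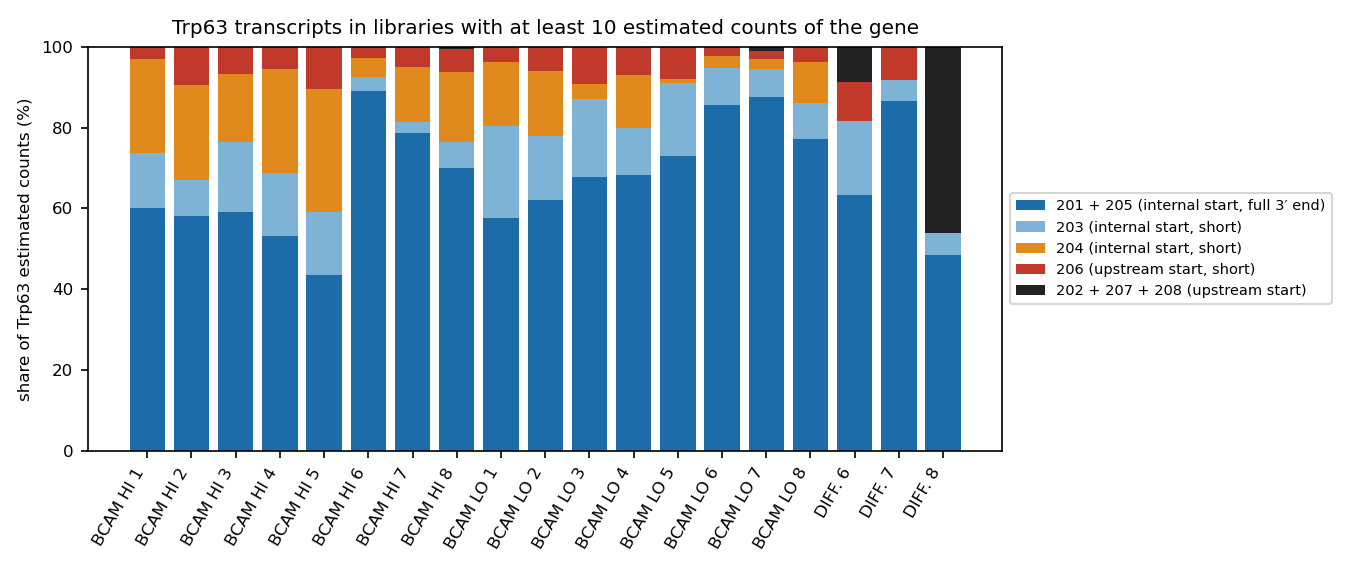
Share of Trp63 estimated counts in each set of transcripts, 1 bar per library, for the 19 libraries with at least 10 counts of the gene (8 BCAM HI, 8 BCAM LO and 3 differentiated). Transcripts of the internal start fill 89.6% to 97.7% of each BCAM bar, and the orange segment, Trp63-204, has a median of 20.2% in BCAM HI and 6.82% in BCAM LO.

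Snai2 encodes the zinc-finger repressor Slug, which binds E-boxes and represses E-cadherin. It gave 17.6 to 69.1 CPM in BCAM HI (median 45.5), 12.4 to 37.4 CPM in BCAM LO (median 24.1) and 0 to 6.91 CPM in differentiated (median 1.62). The BCAM groups overlapped in CPM, and both lay above every differentiated library. Snai2 was higher in BCAM HI than in BCAM LO by 0.87 on the log2 scale (SE 0.22, 8 of 8 same-numbered libraries, edgeR, BH-adjusted p = 0.0147), and leaving out any 1 library kept that call. The size was alike in the batches, 0.88 in batch 1 (edgeR, BH-adjusted p = 0.0220) and 0.87 in batch 2, where it was not called (edgeR, BH-adjusted p = 0.341). It was also lost without the batch term (BH-adjusted p = 0.125), with length offsets (0.0623) and by limma on log2(TPM + 0.1) (0.0696), all BH-adjusted. Against differentiated, Snai2 rose by 4.44 in BCAM HI (SE 0.31, edgeR, BH-adjusted p = 2.40e-12) and 3.57 in BCAM LO (SE 0.31, edgeR, BH-adjusted p = 4.89e-10). Within batches these differences were 4.25 and 3.37 in batch 1 and 5.04 and 4.18 in batch 2, all called by edgeR.

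In contrast to Trp63, Snai2 was lower in batch 2. BCAM HI gave 52.9, 56.0, 53.6, 38.2 and 69.1 CPM in batch 1 and 17.6, 27.6 and 36.5 CPM in batch 2, with no overlap (log2 difference -0.99, SE 0.31, edgeR, BH-adjusted p = 0.0470). BCAM LO gave 21.4 to 37.4 CPM in batch 1 and 12.4 to 17.2 CPM in batch 2, also with no overlap, and the difference of -0.98 (SE 0.33) just missed the threshold (edgeR, BH-adjusted p = 0.0551). Lower in batch 2 were 3.11% of all genes in BCAM HI and 4.66% in BCAM LO. Fibroblast markers, a cell type that also uses Snai2, summed to 402 to 677 CPM in BCAM HI of batch 1 and 176 to 225 CPM in batch 2. In BCAM LO the 10 markers summed to 244 to 413 and 67.9 to 324 CPM. All 10 had a count in each BCAM group, with Col1a1 at 35 counts in BCAM HI and 225 in BCAM LO. Mean Col1a1 rose from 0.928 CPM in batch 1 to 1.99 CPM in batch 2 of BCAM HI, and from 6.51 to 13.7 CPM in BCAM LO. Of the 10 markers 4 were tested, and 1 was called higher and 3 lower in BCAM HI than in differentiated. The sum thus does not describe each marker. What part fibroblast RNA has in the Snai2 values was not tested.

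Sox15 encodes an HMG-box factor of stratified epithelia and was the gene with the fewest counts in the BCAM groups. Its levels were 15.3 to 34.4 CPM in BCAM HI (median 20.5), 5.91 to 15.1 CPM in BCAM LO (median 12.4) and 0 to 9.81 CPM in differentiated (median 2.57). Every BCAM HI library lay above every BCAM LO library, by a margin of 15.3 against 15.1 CPM at the nearest pair. Such separation in the same direction was seen in 0.5% of all genes. The difference was 0.98 on the log2 scale (SE 0.30, 8 of 8 same-numbered libraries) and passed narrowly (edgeR, BH-adjusted p = 0.0451). Leaving out 1 library ended the call for 15 of the 24, among them each of the 8 BCAM HI libraries, with adjusted p-values up to 0.0929 and differences of 0.85 to 1.11. It was also lost in batch 1 alone (0.83, edgeR, BH-adjusted p = 0.153) and batch 2 alone (1.31, edgeR, BH-adjusted p = 0.0930). The same held without the batch term (BH-adjusted p = 0.0873), with length offsets (0.107) and by limma on log2(TPM + 0.1) (0.135). Over all 11 alternatives the adjusted p ran from 0.00217 to 0.153.

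Against differentiated, Sox15 was higher by 2.89 in BCAM HI (SE 0.36, edgeR, BH-adjusted p = 1.39e-07) and by 1.91 in BCAM LO (SE 0.36, edgeR, BH-adjusted p = 1.45e-04). BCAM LO overlapped the differentiated libraries, which were higher in batch 2 (4.52, 9.81 and 3.29 CPM) than in batch 1 (0, 1.86, 1.58, 0.555 and 3.28 CPM). That batch difference was 1.99 (SE 0.55, edgeR, BH-adjusted p = 0.00991). BCAM HI exceeded differentiated by 3.67 in batch 1 alone and 2.28 in batch 2 alone, both called by edgeR. BCAM LO exceeded it by 2.84 in batch 1 alone, which was called, and by 0.97 in batch 2 alone, which was not (edgeR, BH-adjusted p = 0.173). Trp63 and Sox15 were the only 2 of the 7 genes called higher in batch 2 in the differentiated libraries.

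Ngfr encodes the p75 neurotrophin receptor, which binds all neurotrophins and signals alone or with Trk and sortilin receptors. Its levels were 107 to 260 CPM in BCAM HI (median 169), 69.5 to 138 CPM in BCAM LO (median 111) and 0 to 12.1 CPM in differentiated (median 5.64). The BCAM groups overlapped, and the differentiated group lay below both. The difference between the BCAM groups was 0.73 on the log2 scale (SE 0.32), with BCAM HI higher in 8 of 8 same-numbered libraries, and was not called (edgeR, BH-adjusted p = 0.191). It was called with the 2 BCAM groups fitted alone (0.69, edgeR, BH-adjusted p = 2.98e-04) and by limma on log2(TPM + 1) (0.88, BH-adjusted p = 0.0447). BCAM HI exceeded differentiated by 5.04 (SE 0.43, edgeR, BH-adjusted p = 2.64e-09) and BCAM LO by 4.32 (SE 0.42, edgeR, BH-adjusted p = 4.45e-08).

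In the batches Ngfr moved in opposite directions by group. It was higher in batch 2 in BCAM HI, where batch 1 gave 170, 107, 147, 168 and 118 CPM and batch 2 gave 229, 260 and 236 CPM (0.77, SE 0.23, edgeR, BH-adjusted p = 0.0346). In the differentiated libraries batch 1 held 74 counts, at 12.1, 10.5, 5.28, 8.33 and 6.00 CPM, and batch 2 held 5 counts, all in library 8, at 0, 0 and 2.06 CPM. The fall there was -3.39 (SE 0.56, edgeR, BH-adjusted p = 7.33e-05), beside 10.2% of all genes called lower. The difference from differentiated was accordingly 4.08 in batch 1 and 8.23 in batch 2 for BCAM HI, a change of 4.16 (SE 0.60, edgeR, BH-adjusted p = 3.82e-05), and that of BCAM LO changed by 3.76 (SE 0.61, edgeR, BH-adjusted p = 1.27e-04). Both batch 2 values rest on those 5 counts. Schwann cells also carry NGFR. Of their 10 markers 8 had a count in BCAM HI, with Foxd3 and Pmp2 at 0 and Sox10 at 8 counts over 8 libraries, and the list summed to 148 to 239 CPM in BCAM HI, 130 to 192 CPM in BCAM LO and 104 to 191 CPM in differentiated.

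Pdpn encodes podoplanin, a mucin-type glycoprotein that binds the platelet receptor CLEC-2 and links to the actin cytoskeleton through ezrin and moesin. Its levels were 422 to 760 CPM in BCAM HI (median 659), 317 to 540 CPM in BCAM LO (median 403) and 20.1 to 207 CPM in differentiated (median 151). BCAM HI exceeded differentiated by 2.40 on the log2 scale (SE 0.28, edgeR, BH-adjusted p = 2.54e-07) and BCAM LO exceeded it by 1.89 (SE 0.27, edgeR, BH-adjusted p = 1.09e-05). The BCAM groups differed by 0.51 (SE 0.26), with BCAM HI higher in 8 of 8 same-numbered libraries, without a call (edgeR, BH-adjusted p = 0.263). Within batch 1 they did not overlap, 650 to 760 CPM against 389 to 540 CPM, and the difference of 0.63 was called (SE 0.11, edgeR, BH-adjusted p = 5.97e-04). Batch 2 had 422 to 501 CPM against 317 to 372 CPM, also with no overlap, at 0.37 (SE 0.49, edgeR, BH-adjusted p = 0.816). Lymphatic endothelium is another podoplanin-bearing tissue, and its markers Lyve1 and Prox1 summed to 15 and 8 counts in BCAM HI, beside 17360 Pdpn counts. Of the 10 endothelial and lymphatic markers all 10 had a count in BCAM HI, and the list summed to 15.9 to 50.2, 13.6 to 56.5 and 13.2 to 49.9 CPM in BCAM HI, BCAM LO and differentiated, with Ccl21a at 0 in the last.

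F3, the receptor for coagulation factor VII, was the most abundant of the 7 genes. It gave 2136 to 2752 CPM in BCAM HI (median 2436), 1113 to 2082 CPM in BCAM LO (median 1868) and 94.3 to 1192 CPM in differentiated (median 963). All BCAM HI libraries lay above all BCAM LO libraries, as in 0.5% of genes, yet the fitted difference of 0.42 (SE 0.33) was not called (edgeR, BH-adjusted p = 0.524). In batch 1 alone it was 0.56 and called (SE 0.13, edgeR, BH-adjusted p = 0.00873), and with the 2 BCAM groups fitted alone it was 0.44 and called (edgeR, BH-adjusted p = 0.00400). In batch 2 alone it was 0.26 (SE 0.48, edgeR, BH-adjusted p = 0.876). F3 rose against differentiated by 1.88 in BCAM HI (SE 0.35, edgeR, BH-adjusted p = 1.57e-04) and by 1.46 in BCAM LO (SE 0.35, edgeR, BH-adjusted p = 0.00264), and BCAM LO overlapped the differentiated libraries through its library 3, at 1113 CPM. The transcript F3-201 held 89.3% of F3 counts in BCAM HI, 82.9% in BCAM LO and 87.9% in differentiated.

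Pdpn and F3 were lower in differentiated libraries of batch 2. Pdpn gave 198, 207, 171, 160 and 143 CPM in batch 1 and 23.2, 20.1 and 87.2 CPM in batch 2, a log2 difference of -2.0 (SE 0.31, edgeR, BH-adjusted p = 9.55e-05). F3 gave 1085, 1045, 1192, 882 and 1147 CPM in batch 1 and 137, 94.3 and 410 CPM in batch 2, a difference of -2.32 (SE 0.33, edgeR, BH-adjusted p = 3.25e-05). For both genes the batches did not overlap, and library 8 was the highest of batch 2. The difference of BCAM HI from differentiated therefore grew from 1.97 to 3.37 for Pdpn (change 1.40, SE 0.40, edgeR, BH-adjusted p = 0.0330) and from 1.26 to 3.36 for F3 (change 2.09, SE 0.42, edgeR, BH-adjusted p = 0.00245). The corresponding changes for BCAM LO were 1.66 (SE 0.41, edgeR, BH-adjusted p = 0.00967) and 2.39 (SE 0.42, edgeR, BH-adjusted p = 6.44e-04).

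**Figure D3:**
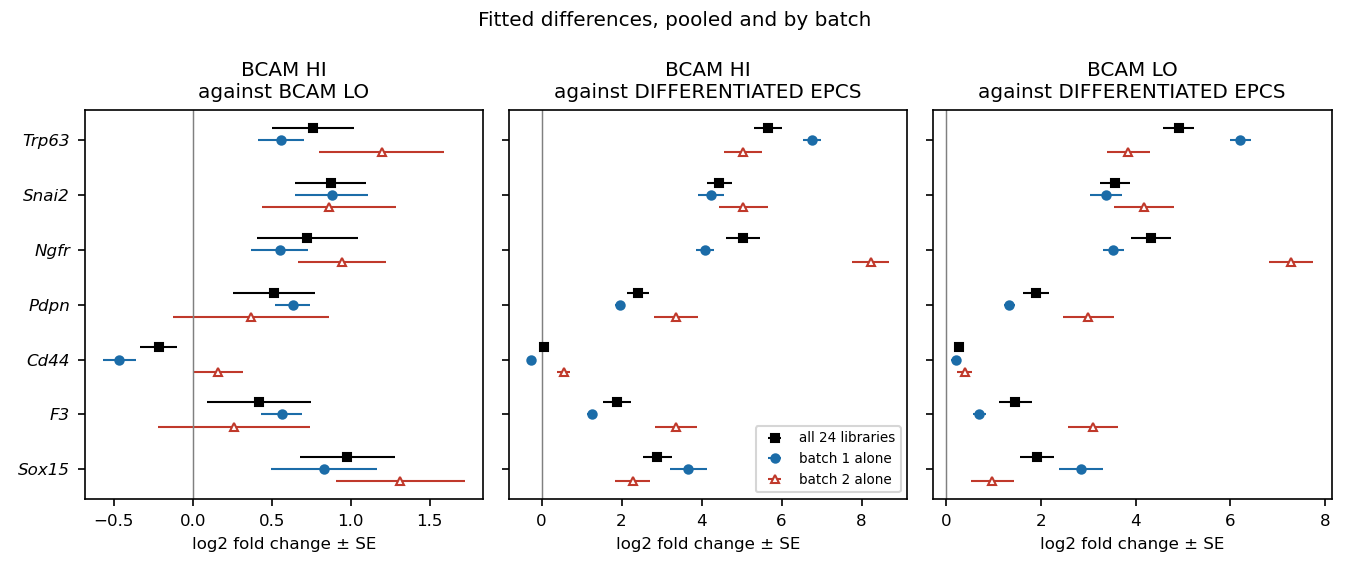
Fitted log2 fold change ± SE of each gene in the 3 comparisons, from all 24 libraries (black squares) and from each batch alone (blue points, batch 1; red triangles, batch 2). For Ngfr, Pdpn and F3 the batch 2 values against differentiated lie above those of batch 1, for Trp63 below, and Cd44 lies on either side of 0.

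The same differentiated libraries differed in secretory genes. Cyp2f2, a cytochrome P450 of secretory (club) cells, gave 25986 to 38258 CPM in batch 1 and 1400 to 8605 CPM in batch 2, with library 8 highest of batch 2 for Cyp2f2, Pdpn and F3. After group and batch means were subtracted, Cyp2f2 was the gene most like Pdpn (Pearson r = 0.976 over 24 libraries, and 0.883 over the 16 BCAM libraries), followed by Tmem176a (0.960) and Cyp4b1 (0.951). For F3 these were Upk1b (0.964), Por (0.948) and Adh7 (0.938). Among the 7 genes the same measure gave r = 0.86 for Pdpn with F3, 0.82 for Ngfr with Pdpn and 0.70 for Ngfr with F3. Over the 16 BCAM libraries it gave 0.48, -0.05 and 0.25, so the pair values of Ngfr rested on the differentiated libraries. These correlations describe libraries that share batches and composition and carry no p. Cyp2f2 was also high in the BCAM groups, at 10718 to 26401 CPM in BCAM HI and 13514 to 27004 CPM in BCAM LO. All 10 secretory markers had a count in each group and summed to 27173 to 35503 CPM in BCAM HI and 35131 to 86116 CPM in BCAM LO. What part secretory or thyroid RNA has in the batch differences of the 7 genes was not tested.

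**Figure D4:**
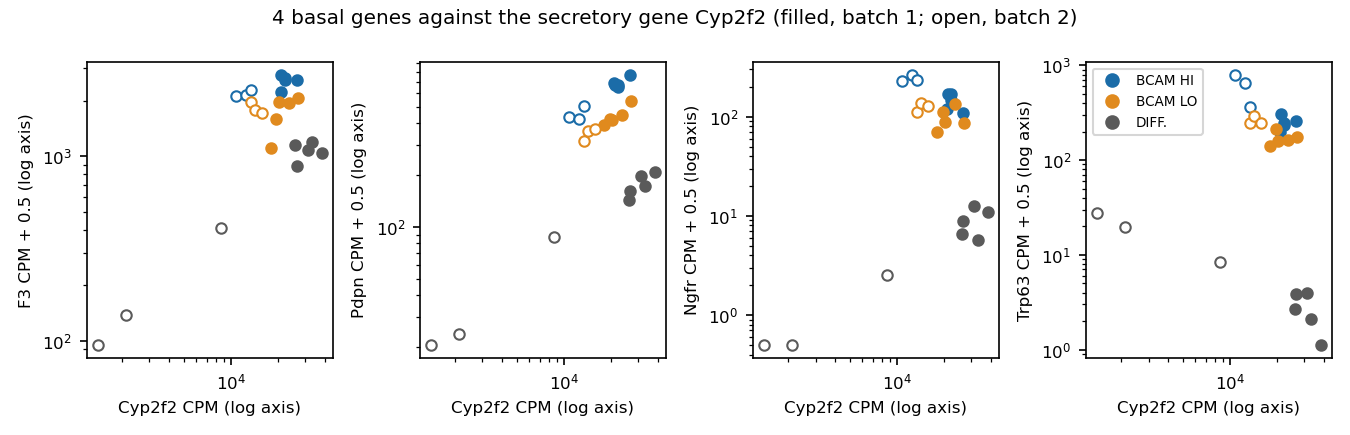
CPM plus 0.5 of F3, Pdpn, Ngfr and Trp63 against CPM of Cyp2f2, both on log axes, 1 point per library; filled points are batch 1 and open points batch 2. The 3 open grey points, differentiated libraries of batch 2, have the lowest Cyp2f2 (1400 to 8605 CPM), low F3, Pdpn and Ngfr, and more Trp63 than the filled grey points.

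Cd44 encodes the main hyaluronan receptor and was the exception among the 7. Its levels were 290 to 359 CPM in BCAM HI (median 308), 286 to 451 CPM in BCAM LO (median 385) and 207 to 393 CPM in differentiated (median 332). The 3 ranges overlapped. No comparison was called: the differences were -0.22 between BCAM HI and BCAM LO (95% interval -0.46 to 0.03, edgeR, BH-adjusted p = 0.297), 0.05 between BCAM HI and differentiated (-0.19 to 0.29, edgeR, BH-adjusted p = 0.761) and 0.27 between BCAM LO and differentiated (0.03 to 0.51, edgeR, BH-adjusted p = 0.0752). The intervals are not adjusted for the number of genes. BCAM LO was above differentiated in 8 of 8 same-numbered libraries, and that difference was called with no filter on low counts (0.32, edgeR, BH-adjusted p = 0.0426) and with those 2 groups fitted alone (0.27, edgeR, BH-adjusted p = 0.0419).

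The sign of the Cd44 differences depended on batch and scale. In batch 1 BCAM HI lay below BCAM LO in all libraries, 290 to 309 CPM against 347 to 451 CPM, a difference of -0.47 that was called (SE 0.10, edgeR, BH-adjusted p = 0.00661). In batch 2 the difference was 0.16 (SE 0.16, edgeR, BH-adjusted p = 0.707), and the change between batches was 0.64 (SE 0.18, edgeR, BH-adjusted p = 0.0764; 1.06% of all genes had a called change). BCAM LO itself was lower in batch 2 by 0.48 (SE 0.13, edgeR, BH-adjusted p = 0.0105), and so was differentiated by 0.67 (SE 0.13, edgeR, BH-adjusted p = 2.62e-04). Against differentiated, BCAM HI differed by -0.26 in batch 1 (edgeR, BH-adjusted p = 0.0523) and 0.56 in batch 2 (edgeR, BH-adjusted p = 0.0143), and that change of 0.83 was called (SE 0.18, edgeR, BH-adjusted p = 0.00213). BCAM LO differed from differentiated by 0.20 in batch 1 and 0.39 in batch 2, neither called (edgeR, BH-adjusted p = 0.145 and 0.106). On log2(TPM + 1) Cd44 was higher than differentiated by 0.74 in BCAM HI and 0.71 in BCAM LO, both called by limma (BH-adjusted p = 0.00133 and 0.00372). The median of all genes was shifted there by 0.64 and 0.40, and relative to it the values were 0.11 and 0.31.

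Cd44 is spliced into a standard form and forms with variant exons. Transcripts with variant exons held 97.7% ± 1.02 of Cd44 counts in BCAM HI, 97.8% ± 1.08 in BCAM LO and 98.7% ± 0.943 in differentiated (SD, n = 8). No pair of groups was called (two-sided exact permutation tests, BH-adjusted p = 0.839, 0.200 and 0.200). The rest was nearly all Cd44-209, a transcript with a retained intron and no annotated coding sequence, at mean shares of 2.26%, 1.88% and 1.35%. These tests therefore do not compare the standard form with the variant forms. Most counts fell to Cd44-207 (5 variant exons, 577 residues), with median shares of 63.7%, 64.9% and 73.2%, and to Cd44-201 (10 variant exons, 780 residues), with 30.0%, 30.3% and 15.8%. In BCAM HI, Cd44-201 held 6.28% to 31.1% in batch 1 and 42.9% to 55.3% in batch 2, without overlap, which was noticed in the values and not tested. The standard transcript Cd44-203 (0 variant exons, 365 residues) reached at most 12.6 counts. Its annotated 3′ end stops 1406 bases short of that of Cd44-207 and it has 0 bases of its own. That count of bases leaves out splice junctions, and reads across the junction that skips all variant exons were not counted apart. How far reads of a standard form with the long 3′ end were assigned to the other transcripts was not tested.

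Between genes, levels were compared per length, as TPM, which divides counts by transcript length and scales every library to the same total. In BCAM HI the order of mean TPM was F3 (1711), Pdpn (393), Trp63 (139), Cd44 (84.3), Ngfr (61.5), Sox15 (37.0) and Snai2 (25.5). F3 and Pdpn did not overlap each other or the rest, at 1501 to 1945 and 310 to 445 TPM. The ranges of Trp63 (85.9 to 246 TPM) and Cd44 (64.5 to 118 TPM) overlapped, as did those of Cd44 and Ngfr (30.8 to 99.6 TPM), and of Sox15 (22.8 to 59.8 TPM) and Snai2 (11.3 to 38.6 TPM). BCAM LO had the same order at both ends, F3 at 1129 TPM, Pdpn at 238 and Snai2 at 12.4, while Cd44 (81.7) stood above Trp63 (58.2) with overlapping ranges. In differentiated, F3 (297 TPM), Cd44 (51.1) and Pdpn (47.4) led, and Sox15, Trp63, Ngfr and Snai2 averaged 3.36, 1.75, 1.00 and 0.709 TPM.

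The neighbours of these genes in their pathways were counted from lists, with no test of a list. Beside the shares called higher given above, 4.59% of all genes were lower in BCAM HI than in BCAM LO, 22% lower in BCAM HI than in differentiated and 17.1% lower in BCAM LO than in differentiated. Of 26 genes of the p63 family and p63 targets, 24 were higher and 1 lower in BCAM HI than in differentiated, with a median log2 fold change of 1.89 beside 0.02 over all genes. Krt5, Krt14, Itga6, Itgb4, Col17a1, Lamb3 and Dst are also on the list of basal markers, so those lists are not independent. Krt5 (10.8) and Col17a1 (7.54), a hemidesmosomal collagen, and Jag2 (6.39), a Notch ligand, rose most, along with Krt14, which had 3977 counts in BCAM HI and 2 in differentiated. Against BCAM LO, 4 were higher and 1 lower (median 0.33, all genes 0.00): Krt14 (1.98), Krt5 (0.84) and Itgb4 (0.52) rose, and Zfp750, a factor of terminal epidermal differentiation, fell by 2.20 on the log2 scale. BCAM LO had 21 higher and 0 lower than differentiated (median 1.51, all genes 0.02), led by Krt5 (9.95), Col17a1 (7.03) and Jag2 (5.95).

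Of 17 Snail family genes and regulators of epithelial-mesenchymal transition, 12 were tested. Between BCAM HI and BCAM LO 0 were higher and 3 lower (median -0.46): the epithelial factors Grhl3 (-2.23), Ovol1 (-1.40) and Grhl1 (-1.28). Against differentiated 4 were higher and 3 lower in BCAM HI (median -0.12), with P-cadherin (Cdh3) higher by 5.91, Cdh2 by 1.40, and Grhl1 (-1.92) and Ovol1 (-1.62) lower. In BCAM LO 4 were higher and 2 lower than differentiated (median 0.52), Cdh3 by 5.23, Ovol2 by 1.34 and Esrp1 by 0.56, with Grhl1 at -0.64. Of 13 other Sox genes 7 were tested, and 0 were called between the BCAM groups by edgeR or by DESeq2 (median -0.17), with 2 at an unadjusted edgeR p under 0.05. Against differentiated 5 were higher and 2 lower in BCAM HI (median 0.82), and 5 higher and 1 lower in BCAM LO (median 0.99). Sox6 (2.21 and 2.02), Sox5 (1.52 and 1.06) and Sox21 (0.98 and 1.5) rose in both, and Sox9 was lower in both (-3.60 and -4.11).

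Of 17 neurotrophin ligands, receptors and adaptors, 12 were tested and 0 were called between the BCAM groups by edgeR (median -0.09), where 4 had an unadjusted p under 0.05 and DESeq2 called 3. Against differentiated, 2 were higher and 4 lower in BCAM HI (median 0.26), and 3 higher and 3 lower in BCAM LO (median 0.11). The NGFR ligand gene Ntf3 rose by 3.48 and 2.67 and Sorcs2, a sortilin-family co-receptor, by 2.83 and 2.40, while the co-receptor Sort1 was lower (-2.32 and -1.75). The adaptor gene Bex3 was lower in BCAM HI (-0.78), and the ligand gene Ntf5 was higher in BCAM LO (1.12). Sorcs2 was also the gene most like Trp63 over the 24 libraries (r = 0.985 of log2 CPM), ahead of Dst (0.974) and Fat2 (0.970).

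Among 20 podoplanin and CD44 partners and hyaluronan genes 13 were tested. The hyaluronidases Hyal1 (0.94) and Hyal2 (0.61) were the 2 genes called between BCAM HI and BCAM LO, both higher in BCAM HI (median -0.03). Against differentiated, 6 were higher and 2 lower in BCAM HI (median 0.77), and 6 higher and 1 lower in BCAM LO (median 0.26). Hyal1 (3.69 and 2.76), Hyal2 (1.83 and 1.22), Cemip2 (1.69 and 1.79), which also degrades hyaluronan, and the hyaluronan receptor gene Layn (1.56 and 2.18) rose in both. Of 15 genes of the tissue factor pathway 8 were tested. Procr, the endothelial protein C receptor, was the 1 called between the BCAM groups, higher by 0.75 in BCAM HI (median 0.33), and 0 were lower. It was also higher than differentiated by 5.61 and 4.86. The thrombin receptor gene F2r (1.46 and 1.07) rose in both BCAM groups, and F2rl1 (0.87) in BCAM HI. Against differentiated, 4 genes of the list were higher in BCAM HI (median 0.76) and 3 in BCAM LO (median 0.31), and 0 were lower.

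**Figure D5:**
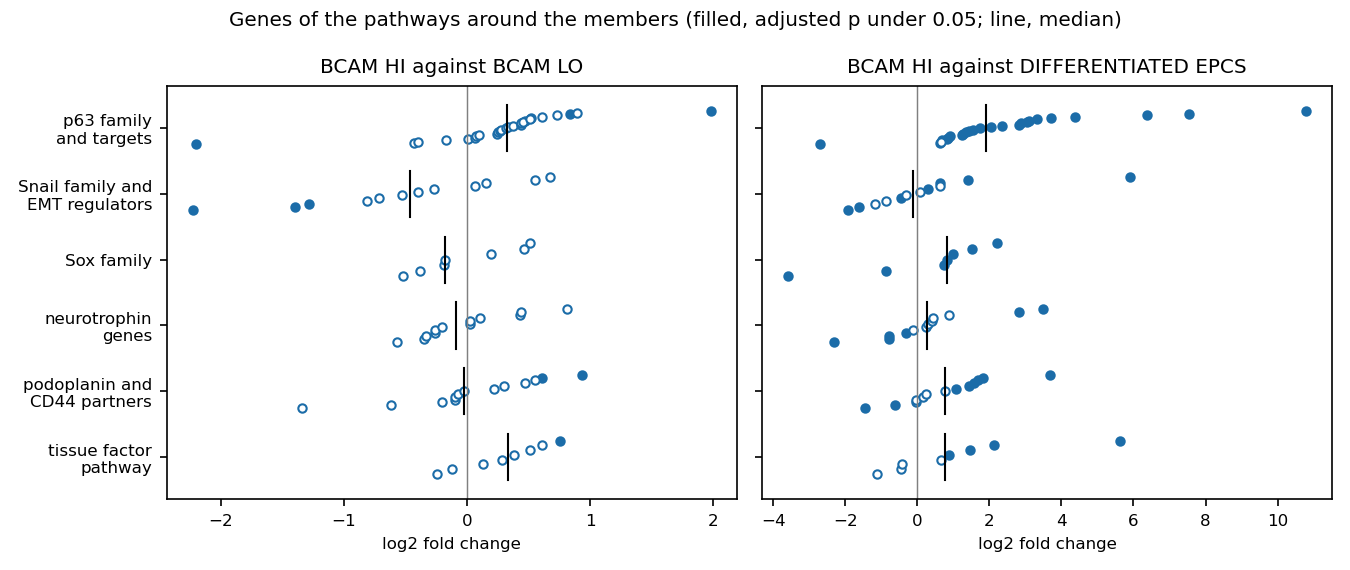
Log2 fold change of each tested gene of the 6 pathway lists, for BCAM HI against BCAM LO and against differentiated; filled points passed the adjusted p threshold, and a line marks the list's median. Krt14, with 2 counts in differentiated, is counted in the median but not drawn on the right. The p63 list holds 24 of 26 higher genes on the right, and 4 on the left.

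Other genes followed the 7 across the 24 libraries, each described by Pearson r of log2 CPM, with groups and batches contributing to it. Nearest to Snai2 were Apoe (0.969), Defb1 (0.964) and Ltbp4 (0.960), and to Ngfr Olfml2a (0.983), Nfkbiz (0.980) and Trim29 (0.977). Hcar2 (0.988), Sdc1 (0.981) and Gdpd2 (0.972) were nearest to Pdpn. F3 had Fam107b (0.980), Sat1 (0.974) and Sgk1 (0.974), and Sox15 had Fermt1 (0.912), Pak6 (0.905) and Tns4 (0.903). Cd44 had no neighbour above 0.859 (Tanc2), followed by Tent4b (0.820) and Mob1b (0.815). With group and batch means subtracted, the nearest were Itga3 and Kdm5a (0.836 each) and CT030661.1 (0.846) for Trp63, Fam198b (0.900), Apoe (0.845) and Phlda3 (0.821) for Snai2, and St3gal2 (0.911), Limk2 (0.891) and Adam28 (0.878) for Ngfr. For Cd44 they were Senp7 (0.861), Vmn2r108 (0.860) and Huwe1 (0.853), and for Sox15 Vps13c (0.810) and Oxr1 (0.741). Apoe stood near Snai2 by both measures, but over the 16 BCAM libraries alone the second gave -0.17. Itga3, an integrin chain on the p63 list, gave 0.75 with Trp63 over those 16.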

How the data were processed

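Each library had 1 deposited table that lists, per the file headers, an estimated count and a TPM value for each of 117497 transcripts. The submitters' processing notes name kallisto (46.1), Picard and build GRCm39; the sources used here do not give the index, the options or whether strand was used. The authors' estimated counts carry no normalization, while their deposited TPM is scaled by transcript length. Identifiers without versions were matched to GENCODE M21 (GRCm38): 116374 matched, and the 1123 others, 0.317% to 0.594% of a library's counts, were left out. Coordinates are those of M21.

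Counts were summed per gene and rounded. The main test was edgeR 4.0.16 (R 4.3.3), quasi-likelihood, robust, with TMM scaling and the default filter on low counts, in 1 fit of group means plus batch over 24 libraries, with BH adjustment over 12211 genes and calls under 0.05. SE is the absolute log2 fold change over the square root of F. Batch-specific group means, in a fit of their own, gave the batch differences and interactions. Shares of transcripts were compared by exact permutation over libraries with at least 10 counts of the gene. The fit was tested on simulated data. Alternatives used DESeq2 1.42.0, limma 3.58.1 on log2(TPM + 0.1) or log2(TPM + 1), other samples, covariates, filters and length offsets. Amplified reads are not independent molecules.

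The 7 genes, the lists and the tests were chosen with earlier results of these data known. Named beside the 7 genes were up to 4 called genes per list and comparison with the largest change, the 3 most correlated genes (mean CPM of at least 10) and defining markers. Some genes that this rule names are not reported here. Marker lists covered basal, secretory, ciliated, suprabasal and hillock, fibroblast, endothelial and lymphatic, immune, Schwann and glial, myoepithelial and smooth muscle, and thyroid, parathyroid and neuroendocrine cells.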

Additional observations from a re-analysis of the deposited data

Results flagged for a closer look

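In 2 of 21 groups of 8 libraries, 7 genes in 3 groups, 1 library stood apart by Dixon's test at 95%, which chance gives in about 1 of 20 groups. Differentiated library 1 had Snai2 at 6.91 CPM, the highest of its group, and differentiated library 7 had Sox15 at 9.81 CPM.

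Differences from the differentiated group changed between batches for 5 genes in BCAM HI and 4 in BCAM LO (edgeR interaction, batch 2 minus batch 1, log2). Such a change was called in 8.69% of all genes for BCAM HI and 11.4% for BCAM LO. Trp63 changed by -1.71 in BCAM HI and -2.36 in BCAM LO. The changes of Ngfr were 4.16 and 3.76, those of Pdpn 1.40 and 1.66 and those of F3 2.09 and 2.39. Cd44 changed by 0.83 in BCAM HI. The comparisons share the differentiated libraries, of which batch 2 has 3.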

How the results depend on the processing

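Over 11 alternatives and 24 fits that each left out 1 library, the calls of Trp63, Snai2, Ngfr, Pdpn and F3 against differentiated kept their direction and stayed under the threshold, as did Sox15 except for BCAM LO in batch 2 alone. Between BCAM HI and BCAM LO the number of the 7 genes called was 2, and it became 1 with length offsets, with limma on log2(TPM + 0.1) and with a replicate block, 4 with limma on log2(TPM + 1), 0 without the batch term, 5 in batch 1 alone, 0 in batch 2 alone and 6 with the 2 BCAM groups fitted alone, where the cause was not tested; leaving out single libraries gave 1 to 3. At an unadjusted p under 0.05 the counts without the batch term and in batch 2 alone were 4 and 3. All genes called there numbered 857, against 545 without the batch term, 543 in batch 2 alone and 1297 with the 2 groups alone. Against differentiated, all genes called in BCAM HI went from 5044 to 7688 and 7713 on log2(TPM + 0.1) and log2(TPM + 1), and in BCAM LO from 4086 to 2221 in batch 2 alone. TPM shifted the median gene by 0.23 to 0.75, so that 820 were higher and 228 lower in BCAM HI than in BCAM LO on log2(TPM + 1), where the main split was 297 and 560; without the batch term it was 126 and 419. The splits against differentiated on log2(TPM + 1) were 6812 and 901 for BCAM HI and 4210 and 652 for BCAM LO, against 2363 and 2681, and 1996 and 2090.

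The Cd44 difference of BCAM HI from BCAM LO turned to 0.0356 on log2(TPM + 0.1), 0.0353 on log2(TPM + 1) and 0.16 in batch 2 alone. Its difference from differentiated in BCAM HI turned to -0.26 in batch 1 alone and to between -0.017 and -0.0012 without BCAM HI 6 or 7 or differentiated 6 or 8, within a range of -0.017 to 0.0896 over left-out libraries. The Cd44 variant share of BCAM HI less BCAM LO ranged from -0.42 to 0.098 points over left-out libraries. The internal-start share of Trp63 between BCAM groups turned to 0.015 points on TPM and 0.055 without Trp63-206 (added after the data were seen). Its difference from differentiated was 17.5 and 18.3 points with no minimum of counts and 18.5 and 18.5 without Trp63-206, none called. Under permutation within batch, which could not give a call, the difference was 18.1 and 18.8 points. Over left-out libraries it ran from 7.09 to 26.1 and from 7.84 to 26.9 points.

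Labels do not tie a replicate number to an animal. Less group and batch means, same-numbered BCAM libraries correlated across genes at 0.029 to 0.165, and 5 of 8 BCAM HI libraries correlated best with their own number. With the replicate block, 864, 5129 and 4136 of all genes and 1, 6 and 6 of the 7 genes were called in the 3 comparisons; the block ended the Sox15 call between BCAM HI and BCAM LO (1.05, edgeR, BH-adjusted p = 0.0526). Depth limits the low genes: Snai2 and Ngfr had 5 counts each in the 3 differentiated libraries of batch 2.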

Other observations

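Markers not described above are given here as counts of genes called (edgeR, BH-adjusted p under 0.05), with BCAM HI against BCAM LO first, BCAM HI against differentiated next and BCAM LO against differentiated last. Of 12 basal markers 4, 11 and 11 were higher, with 0 lower. Bcam, the gene of the protein that names the sorted groups, is on that list of 12, so these counts are not independent of the sort. Of 10 secretory markers 5, 8 and 7 were lower. Of 10 ciliated markers 6, 10 and 9 were lower. The 10 suprabasal and hillock markers, keratins and claudins among them, split as 0 higher and 7 lower, 2 and 6, and 5 and 2, so BCAM LO stood above differentiated in 5 of them and above BCAM HI in 7.

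Few markers of other tissues passed the filter on low counts. Of 4 fibroblast markers tested 0, 1 and 1 were higher and 0, 3 and 0 lower. The 1 endothelial marker tested was not called. Of 5 immune markers 0, 3 and 5 were higher, with Ptprc at 46, 121 and 21 counts in BCAM HI, BCAM LO and differentiated. Of 3 Schwann and glial markers 1, 2 and 1 were higher and 0, 1 and 1 lower. Of 4 myoepithelial and smooth muscle markers 1, 2 and 1 were higher and 0, 1 and 1 lower. Of 8 thyroid, parathyroid and neuroendocrine markers 0, 7 and 6 were lower. Where the first comparison had 0 called, an unadjusted edgeR p under 0.05 was found for 3 fibroblast, 1 immune and 1 thyroid-list marker, and DESeq2 called 1, 0 and 1.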
